A study of Homo sapiens with 4 samples.

Results

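Complex I, NADH:ubiquinone oxidoreductase, is the largest enzyme of the mitochondrial respiratory chain. It oxidises NADH in a peripheral arm made of an N module, where NADH binds, and a Q module, where ubiquinone is reduced, and its membrane arm pumps protons. A few subunits are encoded by mitochondrial DNA, and all others are nuclear genes whose symbols start with NDUF. Genes with the prefix NDUFAF encode assembly factors, which help build the enzyme and are absent from the finished complex. Primed human pluripotent stem cells rely strongly on glycolysis but keep a working respiratory chain.

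The genes described here are all symbols starting with NDUF in RNA count tables of H9 cells, an established line of primed human pluripotent stem cells. The prefix took 50 of 33640 genes, of which 39 are subunits (NDUFA, NDUFB, NDUFC, NDUFS and NDUFV), 8 are NDUFAF assembly factors and 3 are antisense or divergent noncoding genes (NDUFA6-DT, NDUFB2-AS1 and NDUFV2-AS1). Counted with the subunits for their prefix are NDUFA4, which is now placed in complex IV, and its relative NDUFA4L2. There were 4 libraries from nuclei of untreated H9 cells. Reverse transcription (RT) preceded tagmentation by the transposase Tn5 in the Pre libraries and followed it in the Post libraries, and in each order either RNA only or both RNA and the DNA marked by H3K27me3 and H3K27ac (RNA and DNA) were profiled. The Post and Pre libraries with only RNA profiled are called the RNA pair, and those with both profiled the joint pair. Each of these 4 conditions is 1 library, so no difference below has a replicate check and none is given a p-value. The only test is an additive fit over all 4 libraries, in the last section. In bulk libraries fewer nuclei with an RNA and less RNA per nucleus cannot be told apart.

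The totals were 6368721 to 10089552 deduplicated reads per library, and values are given as RPM, the reads of a gene scaled to that total. In Post, RNA only, 34.8% of all counts fell on 6 clone-named genes, against 10.7% to 15.8% elsewhere, which lowers the RPM of every other gene there. Differences are therefore log2 ratios of RPM + 1, set against the median of the 11564 genes whose mean over the libraries reached 10 RPM (the all-gene median). These are called expressed genes below. That median was -0.44 for Post over Pre in the RNA pair and -0.09 in the joint pair. A gene is called higher or lower where it lies at least 0.32 from that median on the log2 scale. Intervals are exact 95% intervals that cover counting error only. Of the listed markers of primed cells, POU5F1 was at 148 to 190 RPM, NANOG at 29.7 to 36.0 RPM and L1TD1 at 650 to 1073 RPM, and the 3 naive markers (KLF17, DPPA5 and SUSD2) were at 0 to 2.24 RPM. The markers of mesendoderm and endoderm, neural cells and trophoblast were at 0 to 4.46 RPM, with FOXA2 the highest. Of the fibroblast list, COL1A2 was at 20.3 to 29.6 RPM, COL1A1 at 7.38 to 10.8 RPM and LUM at 0 to 0.11 RPM, and the part of such cells in the values below was not tested.

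Nuclear respiratory genes are known targets of the transcription factors NRF1 and YY1 and of ETS family factors such as GABPA, so the letters these factors prefer were searched in the promoters. RefSeq promoter windows (GRCh38.p14, 250 bases before to 50 after each gene's start, both strands) were matched for 39 of the 47 subunits and assembly factors. Among those not listed were NDUFA4, NDUFA4L2, NDUFAF6, NDUFB5, NDUFB9, NDUFC2 and NDUFS5. The YY1 letters AANATGGCG stood in 11 of 32 subunit genes, 34.4%, against 9.04% of the 8408 expressed genes with a window and 3.85% of all 27305. After the start, on either strand, they stood in 10 of 32 subunit genes, 31.25%, against 5.77% of the expressed genes with a window. In 8 of the subunit genes these letters lay after the start on the gene's own strand, and the ATG inside them was an annotated start codon. How often all genes meet this last condition was not computed. Those 8 sites are shown because they line up on the first codon of 8 proteins from different parts of the enzyme. The capitals mark the YY1 letters, and each line is read 5′ to 3′ along the gene.
NDUFS3, chr11:47579081-47579105, plus strand: atctgagtAACATGGCGgcggcggc
NDUFS4, chr5:53560652-53560676, plus strand: cctgcagcAAGATGGCGgcggtgtc
NDUFS6, chr5:1801407-1801431, plus strand: agcggcgcAAAATGGCGgcggcgat
NDUFS7, chr19:1383916-1383940, plus strand: ccgaggccAAGATGGCGgtgctgtc
NDUFA6, chr22:42090731-42090755, minus strand: gctttggcAAGATGGCGgggagcgg
NDUFA7, chr19:8321345-8321369, minus strand: gcggacggAAGATGGCGtccgccac
NDUFA9, chr12:4649116-4649140, plus strand: tgtgggaaAAGATGGCGgctgccgc
NDUFB8, chr10:100529838-100529862, minus strand: agaaggtgAAGATGGCGgtggccag

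The NRF1 letters GCGCANGCG stood in 10 of 32 subunit genes, 31.3%, against 17.3% of the expressed genes with a window. NDUFS6, NDUFS7 and NDUFA9 held both the NRF1 and the YY1 letters. The ETS letters CCGGAAGT stood in 2 of 32 subunit genes, 6.25%, against 9.99% of the expressed genes. Of 7 assembly factor genes, NDUFAF5 held NRF1 letters and NDUFAF8 held YY1 letters. No match overlapped another factor's match. A match of letters is a description and not a binding site. The NRF1 matches of a subunit of each arm and of the acyl carrier protein are shown with their letters in capitals, NDUFS7 and NDUFAB1 holding the reverse complement.
NDUFB4, chr3:120596265-120596289, plus strand, beginning 63 bases before the start: ctgctaacGCGCAGGCGcacttcct
NDUFS7, chr19:1383825-1383849, plus strand, beginning 74 bases before the start: ccggtttcCGCATGCGCtccgagcc
NDUFAB1, chr16:23596345-23596369, minus strand, beginning 45 bases before the start: gtgtgcgtCGCCTGCGCgccgccgg

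All 50 genes had counts, and 43 reached the mean of 10 RPM: 35 subunits, 6 assembly factors and 2 noncoding genes. Below it were the subunits NDUFA1, NDUFA4L2, NDUFB3 and NDUFB11, the assembly factors NDUFAF1 and NDUFAF3, and NDUFB2-AS1. NDUFB11 was just under the limit at 9.76 RPM, and NDUFAF4 just over it at 11.3 RPM. In the order Pre, RNA only; Pre, RNA and DNA; Post, RNA only; Post, RNA and DNA, in which all values of single genes follow, the 39 subunits summed to 1022, 1093, 910 and 909 RPM. The 8 assembly factors summed to 266, 271, 204 and 246 RPM. In RPM both classes were highest in Pre, RNA and DNA. Which library is highest depends on the total, since with the 20 most abundant genes left out of it the subunits summed to 1199, 1259, 1445 and 1114 RPM and the assembly factors to 312, 312, 323 and 302 RPM, and Post, RNA only was then the highest for both.

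The subunits are mostly short genes with short mRNAs. The median gene span was 14.6 kb for the 35 subunits, 29.2 kb for the 6 assembly factors and 50.7 kb for the 10479 expressed genes with a place in the annotation (GENCODE release 44, GRCh38). The median transcript had 737 bases for the subunits, 1990 for the assembly factors and 3718 for all genes. RT used a barcoded poly-T primer, and whether counts scale with transcript length was not tested. Ranks per kilobase therefore depend strongly on length. NDUFS1, with a mean of 95.5 RPM, was at 8.19 RPM per kb of a transcript of 11660 bases. Per kilobase of the canonical transcript, the median mean level was 21.8 RPM per kb over all 39 subunits and 15.02 over all 8 assembly factors, but with each gene's longest transcript these were 9.97 and 11.1, so the order of the classes turns. The subunits with the highest mean level were NDUFB2 at 81.7, NDUFA13 at 75.3, NDUFS4 at 72.9 and NDUFS6 at 71.4 RPM per kb. With the longest transcript NDUFB2 was at 22.8 and NDUFA13 at 33.6, while NDUFS4 was at 58.5 and NDUFS6, then the highest, at 67.2 RPM per kb. The lowest were NDUFB5 at 2.94, NDUFA4L2 at 2.97, NDUFA5 at 3.77 and NDUFA9 at 3.85 RPM per kb. Among these, NDUFB5, NDUFA5 and NDUFA9 have canonical transcripts of 4199 to 8356 bases. NDUFAF2, a relative of the subunit NDUFA12 that acts late in assembly, was the highest assembly factor at 117 RPM per kb of a canonical transcript of 632 bases. With its longest transcript of 4520 bases it was at 16.3, below NDUFAF8 at 20.4 and NDUFAF7 at 17.7 RPM per kb. NDUFAF5 was the lowest at 3.91 with the canonical transcript, and NDUFAF1 at 3.16 with the longest.

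The first comparison asked whether RT after tagmentation changed complex I RNA relative to RT before it when only RNA was profiled. In this RNA pair the subunits lay above the all-gene median, with a median log2 ratio of 0.31 (1.24-fold). Of 35 subunits 30 were above that median and 5 below. By that rule 17 subunits (48.6%) were higher and 0 were lower, where 15.4% of all genes were called higher and 13.1% lower. The 6 assembly factors had a median of 0.08, with NDUFAF4 and NDUFAF8 higher and NDUFAF5 lower. The subunits' median exceeded that of the assembly factors by 0.24 on the log2 scale.

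When DNA was profiled as well, the same change of order went the other way for the subunits. In the joint pair their median was -0.24, with 29 of 35 below the all-gene median. By the same rule 0 subunits were higher and 11 (31.4%) were lower, against 6.79% of all genes called higher and 9.94% called lower. The assembly factors had a median of -0.09, and NDUFAF4 was the single one called lower. The subunits' median minus that of the assembly factors was -0.15. The summed counts gave relative log2 ratios of 0.27 (interval 0.22 to 0.32) for the subunits in the RNA pair and -0.17 (-0.21 to -0.13) in the joint pair. For the assembly factors they were 0.05 (-0.04 to 0.15) and -0.04 (-0.12 to 0.04), and both intervals hold 0.

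Limits of these directions follow from the scaling. In plain RPM, without the all-gene median taken off, the subunits' median was -0.13 in the RNA pair, so that direction turns, and -0.34 in the joint pair. Of the 30 subunits above the all-gene median in the RNA pair 12 were then above 0 and 18 below, the latter including NDUFA3, NDUFA8, NDUFB5, NDUFB9 and NDUFS8 of the 17 called higher. Above a mean of 50 RPM only NDUFA10, NDUFS1 and NDUFV2 were left of the subunits, and their medians were -0.083 and -0.073.

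**Figure D1:**
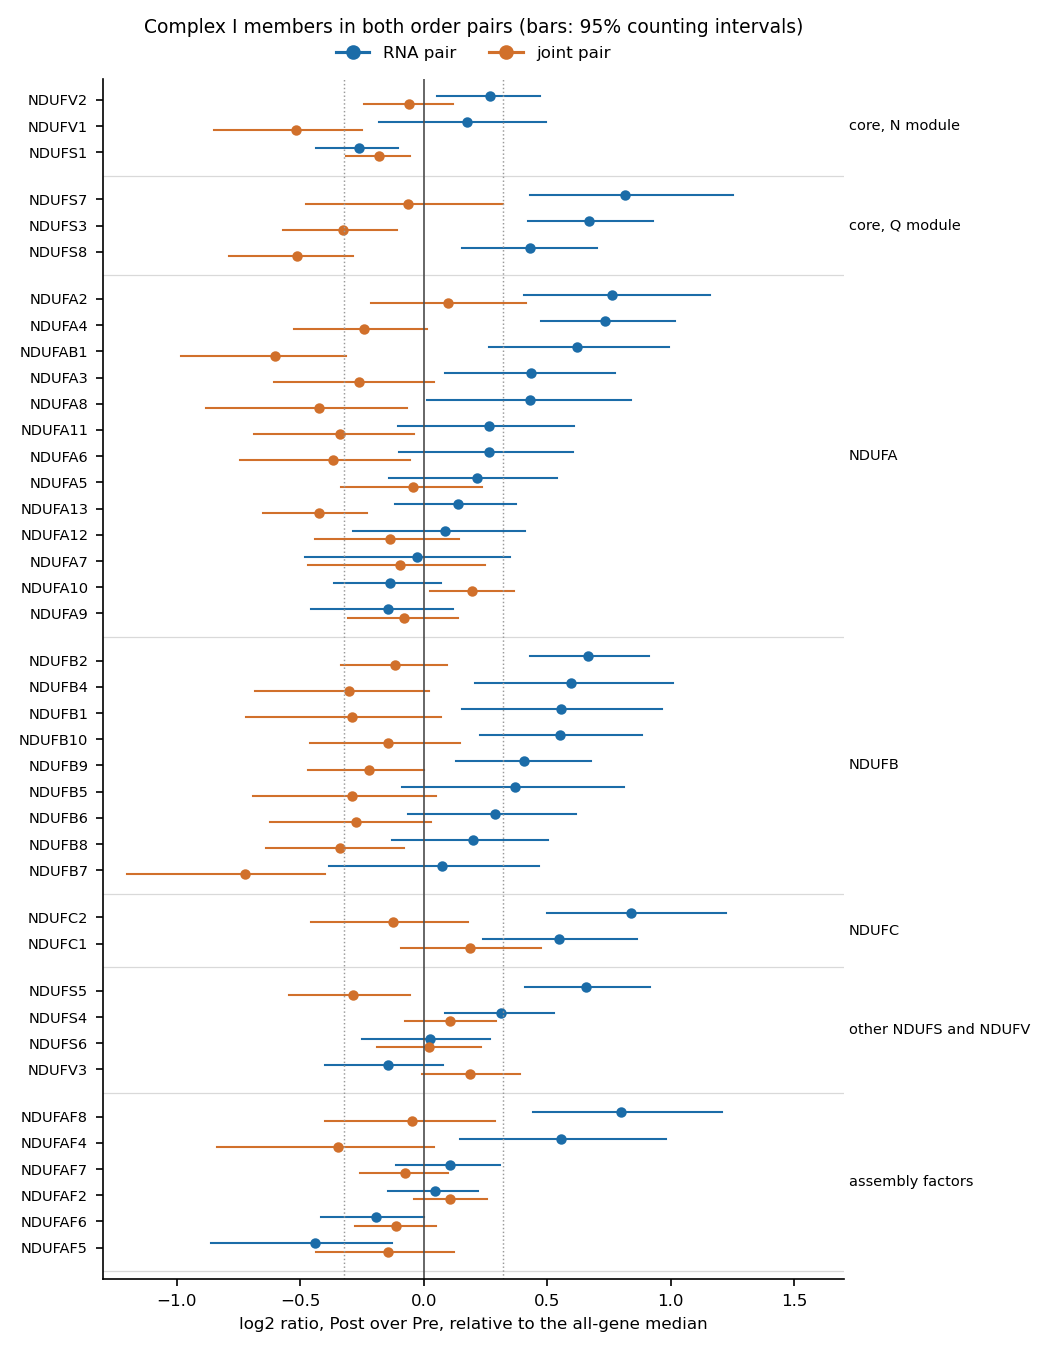
Log2 ratio of Post over Pre relative to the all-gene median (x axis) for 34 of the expressed subunits and the 6 expressed assembly factors (y axis, grouped by class), with blue points for the RNA pair and orange points for the joint pair. Bars are exact 95% counting intervals and dotted lines mark 0.32 on either side of 0. For 25 of these 34 subunits the blue point lies right of 0 and the orange point left of it.

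Gene span moved with both results. Across the 35 subunits the Pearson correlation of log span with the relative log2 ratio was -0.40 in the RNA pair and 0.54 in the joint pair, and across all 10479 genes with a place it was -0.36 and 0.44. These are descriptions across genes that share the same libraries. In the RNA pair the 12 subunits of up to 10 kb had a median of 0.49 where 979 genes of that span had 0.39. The 13 subunits of 10 to 30 kb had 0.29 where 2441 genes had 0.09, and the 10 subunits above 30 kb had 0.18 where 7059 genes had -0.06. In the joint pair the subunits' medians in those classes were -0.30, -0.29 and -0.07, and those of all genes were -0.26, -0.12 and 0.04. Set against the median of genes of their own span class, the subunits' medians were 0.16 in the RNA pair and -0.10 in the joint pair, with 12 (34.3%) called higher in the first and 2 (5.71%) called lower in the second, where 12.4% and 6.01% of the genes with a place were called by the same centres. The share called lower in the joint pair was thus near that of all genes. The part of gene span in the difference between subunits and assembly factors was not tested beyond this, and with the same centres that difference was 0.10 in the RNA pair and -0.080 in the joint pair.

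**Figure D2:**
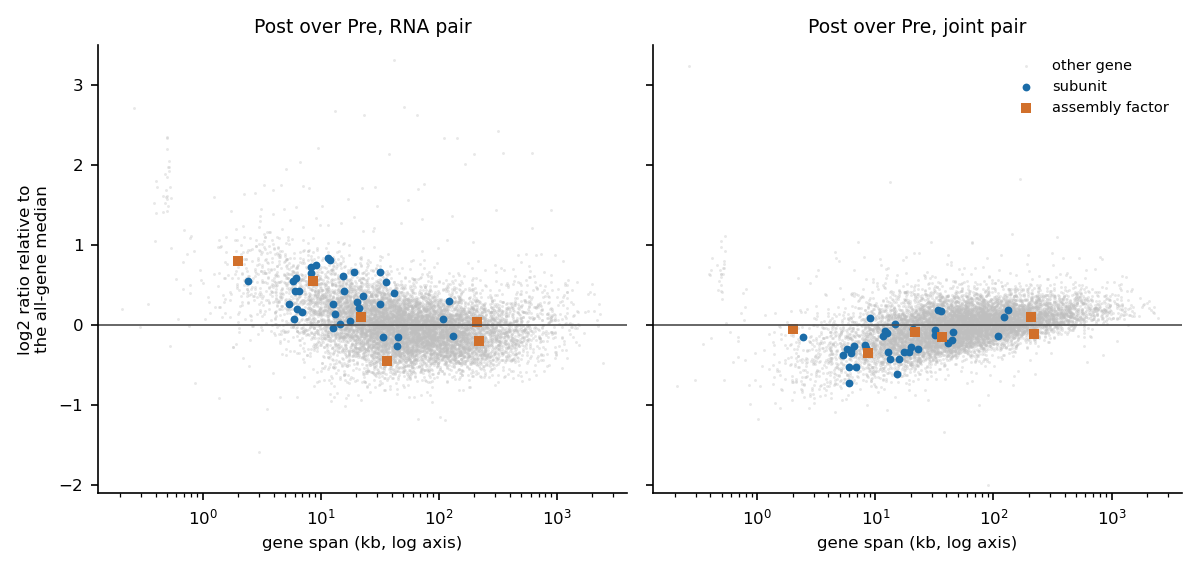
Gene span in kb (x axis, log scale) against the log2 ratio of Post over Pre relative to the all-gene median (y axis) in the RNA pair (left) and the joint pair (right). Each point is 1 gene, with subunits as blue circles, assembly factors as orange squares and all other genes in grey. Subunits crowd at short spans, and genes of up to 10 kb have a median of 0.39 on the left and -0.26 on the right.

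The 7 nuclear core subunits, which carry the flavin and the iron-sulfur clusters and line the quinone site, had medians of 0.27 in the RNA pair and -0.33 in the joint pair. All 7 were below the all-gene median in the joint pair. The 3 of the N module had a median of 0.17 in the RNA pair. These groups are small and their members differ.

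In the Q module, NDUFS3 (chr11:47565336-47584562), a scaffold subunit of the early assembly intermediate, stood at 31.6, 38.4, 37.2 and 28.4 RPM. It was highest in Pre, RNA and DNA and in Post, RNA only, and lowest in Post, RNA and DNA. The ratio of NDUFS3 for Post over Pre was 0.67 (0.42 to 0.93) in the RNA pair and -0.33 (-0.57 to -0.11) in the joint pair. NDUFS8 (chr11:68030617-68036644), which carries iron-sulfur clusters, was at 29.9, 34.8, 29.7 and 22.5 RPM. Post, RNA and DNA was again the lowest library, and the RNA only libraries were at almost the same RPM. Relative to all genes NDUFS8 was at 0.43 (0.16 to 0.70) in the RNA pair and -0.51 (-0.79 to -0.28) in the joint pair. NDUFS7 (chr19:1383527-1395589) holds the last cluster before ubiquinone. It was at 11.5, 12.1, 15.2 and 10.7 RPM, with ratios of 0.81 (0.43 to 1.2505) and -0.06 (-0.48 to 0.32).

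In the N module, NDUFS1 (chr2:206114817-206159509), the largest subunit of the enzyme, had the highest RPM of all members, at 108, 114, 66.3 and 93.8. Its ratios were -0.26 (-0.44 to -0.10) in the RNA pair and -0.18 (-0.31 to -0.06) in the joint pair. Post, RNA only was its lowest library also relative to all genes. Its distance from Post, RNA and DNA was small, with 0.12 (-0.04 to 0.29) for RNA and DNA over RNA only, an interval that holds 0. NDUFS1 was the only subunit whose counting interval in the RNA pair lay wholly below 0. NDUFV1 (chr11:67605653-67612554) binds NADH and the flavin. It was at 22.1, 24.9, 18.2 and 16.0 RPM, and its ratios were 0.17 (-0.18 to 0.50) and -0.52 (-0.85 to -0.25). NDUFV2, its iron-sulfur partner, was at 54.4, 56.4, 48.2 and 50.5 RPM. Its ratios were 0.27 (0.06 to 0.47) and -0.06 (-0.24 to 0.12), and both stayed within 0.32. NDUFV2-AS1 overlaps NDUFV2 by 13167 bases on the opposite strand, and since no strand setting is stated their reads cannot be told apart.

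**Figure D3:**
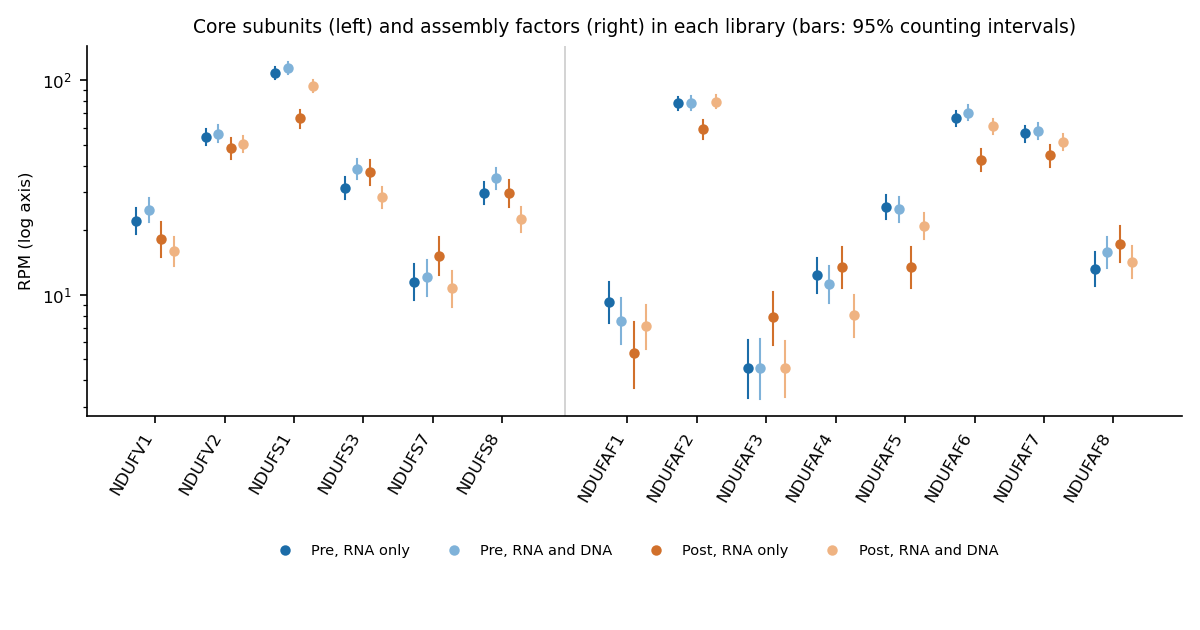
RPM (y axis, log scale) of 6 core subunits (left of the line) and the 8 assembly factors (right of it) in each of the 4 libraries, coloured by library. Points are single libraries and bars are exact 95% counting intervals. NDUFS1 is the highest gene, at 66.3 to 114 RPM, and NDUFAF3 the lowest, at 4.56 to 7.85 RPM.

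The supernumerary subunits, which surround the core and stabilise it, had medians of 0.31 in the RNA pair and -0.22 in the joint pair over 27 genes. The NDUFB genes, most of which encode parts of the distal membrane arm, lay on 1 side of the all-gene median in each pair. All 9 measured NDUFB genes were above it in the RNA pair (median 0.40, 6 called higher, against 15.4% of all genes) and all 9 were below it in the joint pair (median -0.29). There 2 were called lower, 22.2% against 9.94% of all genes. NDUFB7, on the outer face of the membrane arm, was at 14.8, 15.6, 11.3 and 8.42 RPM. It had the lowest ratio of any subunit in the joint pair, -0.72 (-1.20 to -0.40), and 0.08 (-0.38 to 0.47) in the RNA pair. The 13 NDUFA genes had medians of 0.26 and -0.24. NDUFA3, NDUFA11, NDUFB1, NDUFB6 and NDUFB10 lay between 10.1 and 21.5 RPM in every library, with ratios of 0.26 to 0.55 in the RNA pair and of -0.34 to -0.14 in the joint pair.

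NDUFAB1 (chr16:23581014-23596316), the mitochondrial acyl carrier protein, was at 15.7, 21.2, 17.9 and 12.7 RPM. It was highest in Pre, RNA and DNA and lowest in Post, RNA and DNA. Its ratios of 0.62 (0.26 to 0.99) and -0.60 (-0.98 to -0.32) gave the largest difference between the order pairs of any subunit at the filter, 1.24 (0.81 to 1.77). NDUFC2 (chr11:78068297-78079862), a small membrane arm subunit, had the highest ratio of the 35 expressed subunits in the RNA pair. NDUFA1, under the filter at 7.04, 7.03, 10.8 and 5.75 RPM, was at 1.00 (0.55 to 1.57). NDUFC2 was at 14.5, 19.0, 19.5 and 16.2 RPM, with ratios of 0.84 (0.50 to 1.23) and -0.13 (-0.46 to 0.18), and Pre, RNA only was the low library. NDUFA2, an N module subunit, was at 13.9, 18.0, 17.6 and 18.0 RPM, lowest in that library too. Its ratios were 0.76 (0.40 to 1.16) and 0.10 (-0.21 to 0.41). NDUFA4 was at 26.7, 27.7, 33.0 and 21.7 RPM, with ratios of 0.73 (0.47 to 1.02) and -0.24 (-0.53 to 0.01). NDUFA4L2, which is induced by hypoxia in many cells, was at 2.20 to 3.57 RPM in all 4 libraries.

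A few supernumerary subunits did not lie both above the all-gene median in the RNA pair and below it in the joint pair. NDUFA10, of the membrane arm, was at 61.0, 59.0, 40.7 and 63.3 RPM, with ratios of -0.14 (-0.36 to 0.07) and 0.19 (0.03 to 0.36). NDUFV3, an accessory N module subunit, was at 50.6, 43.7, 33.4 and 46.8 RPM, with ratios of -0.15 (-0.40 to 0.08) and 0.19 (-0.01 to 0.39). Both were low in Post, RNA only. NDUFA9, at the joint of the arms, was at 35.1, 37.5, 23.1 and 33.1 RPM and lay below the all-gene median in both pairs, at -0.15 (-0.46 to 0.12) and -0.08 (-0.31 to 0.14). NDUFA10, NDUFV3 and NDUFA9 span 133, 33.7 and 45.2 kb, above the subunits' median, but NDUFS4 and NDUFC1, described next, span 123 and 35.7 kb. Of the 10 subunits above 30 kb, 6 lay above the all-gene median in the RNA pair and 4 below. NDUFA7 too lay below the all-gene median in both pairs, at -0.03 (-0.48 to 0.35) and -0.10 (-0.47 to 0.25). NDUFC1 and NDUFS4 were above the all-gene median in both pairs, as were NDUFA2 and NDUFS6. NDUFS4, an accessory subunit of the N module, was at 47.8, 51.6, 43.7 and 52.0 RPM, with ratios of 0.31 (0.09 to 0.53) and 0.11 (-0.08 to 0.29). NDUFC1 was at 21.8, 21.3, 23.6 and 22.8 RPM, with ratios of 0.55 (0.24 to 0.86) and 0.19 (-0.09 to 0.48). NDUFS6, which takes part in the last step of N module attachment, was at 39.7, 40.4, 29.5 and 38.4 RPM and had ratios of 0.02 in both pairs.

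The assembly factors did not move as 1 group. The long genes NDUFAF2 (209 kb) and NDUFAF6 (221 kb) stayed within 0.32 of the all-gene median in both order pairs. NDUFAF2 was at 77.8, 78.5, 59.0 and 79.2 RPM, with ratios of 0.05 (-0.14 to 0.22) and 0.11 (-0.04 to 0.26). NDUFAF6, an early assembly factor, was at 66.5, 70.4, 42.6 and 61.0 RPM, with ratios of -0.19 (-0.42 to 0.00) and -0.11 (-0.28 to 0.05). NDUFAF7, an arginine methyltransferase, was at 56.4, 57.9, 44.6 and 51.3 RPM and stayed within 0.32 of the all-gene median too, at 0.11 (-0.11 to 0.31) and -0.08 (-0.26 to 0.10). In plain RPM all of these 3 were lowest in Post, RNA only.

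NDUFAF5 and NDUFAF8 act together, since NDUFAF5 hydroxylates NDUFS7 and NDUFAF8 stabilises NDUFAF5, yet their RNAs lay on opposite sides in the RNA pair. NDUFAF5 (chr20:13785007-13821580) was at 25.7, 25.0, 13.5 and 21.0 RPM, so that Post, RNA only was low. Its ratios were -0.44 (-0.86 to -0.13) and -0.15 (-0.43 to 0.12). NDUFAF8 (chr17:81239305-81241310) was at 13.2, 15.8, 17.3 and 14.3 RPM, highest in that same library. Its ratios were 0.80 (0.44 to 1.21) and -0.05 (-0.40 to 0.29). NDUFAF3 and NDUFAF4 bind each other on the Q module intermediate. NDUFAF4 was at 12.4, 11.3, 13.5 and 8.03 RPM, with ratios of 0.56 (0.15 to 0.98) and -0.35 (-0.84 to 0.04). NDUFAF3, under the filter, was at 4.58, 4.58, 7.85 and 4.56 RPM, and Post, RNA only was its high library. Its ratios were 1.10 (0.60 to 1.84) and 0.09 (-0.55 to 0.73). NDUFAF1, also under the filter, is part of the assembly complex of the membrane arm. It was at 9.28, 7.59, 5.34 and 7.14 RPM, lowest in Post, RNA only in plain RPM. Relative to all genes NDUFAF1 was at -0.26 (-0.98 to 0.23) and 0.02 (-0.49 to 0.50), and both intervals hold 0. NDUFAF3, NDUFAF4 and NDUFAF8 span 3.04, 8.58 and 2.01 kb, and NDUFAF1 and NDUFAF5 span 22.2 and 36.6 kb.

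The order pairs share no library, so their values can be set side by side. Of 35 subunits, 26 (74.3%) were above the all-gene median in the RNA pair and below it in the joint pair, where 25.6% of all genes did this. NDUFA8, NDUFAB1, NDUFS3 and NDUFS8 were called in both, higher in the RNA pair and lower in the joint pair, which is 11.4% of the subunits against 3.60% of all genes. NDUFAF4 was the single assembly factor to do so. The RNA only ratio minus the RNA and DNA ratio, taken relative to its own all-gene median, had a median of 0.64 over the subunits and 0.07 over the assembly factors. By that difference 26 subunits were called higher and NDUFV3, at the threshold with -0.32, was the 1 called lower, against 21.8% and 17.3% of all genes. The counting interval of the difference lay above 0 for 24 subunits, where 20.3% of all genes had such an interval. Short genes in general were high by this difference, with 751 of the 979 genes of up to 10 kb called higher. With the median of the same gene span class as the centre the subunits' median difference was 0.28. By that centre 14 subunits (40.0%) were called higher, against 16.0% of the genes with a place.

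The remaining comparisons asked whether profiling DNA in the same nuclei changed complex I RNA. They reuse the same 4 libraries and are no independent support for the order pairs. In the Pre libraries, RNA and DNA over RNA only gave a median of 0.05 for the subunits and -0.00 for the assembly factors. In them 3 subunits were called higher, NDUFAB1, NDUFC2 and NDUFA2, and 0 lower, where 2.08% of all genes were called higher and 1.76% lower. NDUFAB1 was at 0.39 (0.09 to 0.73), NDUFC2 at 0.34 (0.03 to 0.70) and NDUFA2 at 0.33 (0.01 to 0.69). All 7 core subunits were above the all-gene median, by 0.03 to 0.25.

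In the Post libraries the same contrast gave a median of -0.55 for the subunits and -0.07 for the assembly factors. Of 35 subunits 24 (68.6%) were lower and 0 higher, against 17.5% and 11.5% of all genes, and all 9 measured NDUFB genes were among the lower. Short genes in general were low here. The 979 genes of up to 10 kb had a median of -0.56, with 700 called lower, and the 12 subunits of that span had -0.73. With genes of the same span class as the centre 13 subunits (37.1%) were lower, against 11.9% of genes. NDUFA4 was at -0.96 (-1.26 to -0.70), NDUFS5, a small accessory subunit of the membrane arm, at -0.90 (-1.18 to -0.66) and NDUFA8 at -0.88 (-1.37 to -0.48). NDUFAF4 was at -1.06 (-1.58 to -0.67), the single member at the filter to reach 2-fold in any pair of libraries. Under it, NDUFA1 was at -1.19 (-1.82 to -0.77), NDUFB11 at -1.18 (-1.80 to -0.77) and NDUFAF3 at -1.05 (-1.77 to -0.55). NDUFAF8, at -0.64 (-1.02 to -0.28), was the other assembly factor at the filter called lower. NDUFA10 was on the other side at 0.25 (0.05 to 0.48). Post, RNA only, the library with 34.8% of its counts in clone-named genes, enters this contrast and the RNA pair, while the joint pair and the Pre contrast do not use it.

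Beside the prefix, other genes of the same enzyme and chain were read in the same way, against 15.4% of all genes called higher and 13.1% lower in the RNA pair and 6.79% and 9.94% in the joint pair. Of 11 complex I assembly factors with other names, among them ECSIT and ACAD9, 9 were at the filter, with medians of 0.04 in the RNA pair (2 higher, 0 lower) and -0.14 in the joint pair (1 higher, 2 lower). The 7 complex I mRNAs made in mitochondria had medians of 0.08 (1 higher, 0 lower) and -0.41 (0 higher, 6 lower). The nuclear subunits of complexes II to V, 37 at the filter, had medians of 0.52 (29 higher, 1 lower) and -0.37 (0 higher, 22 lower). They have a median span of 12.0 kb, shorter than the 14.6 kb of the complex I subunits. The directions of the complex I subunits were thus also those of the medians of the other chain complexes, and the sizes of the lists were not tested against each other.

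**Figure D4:**
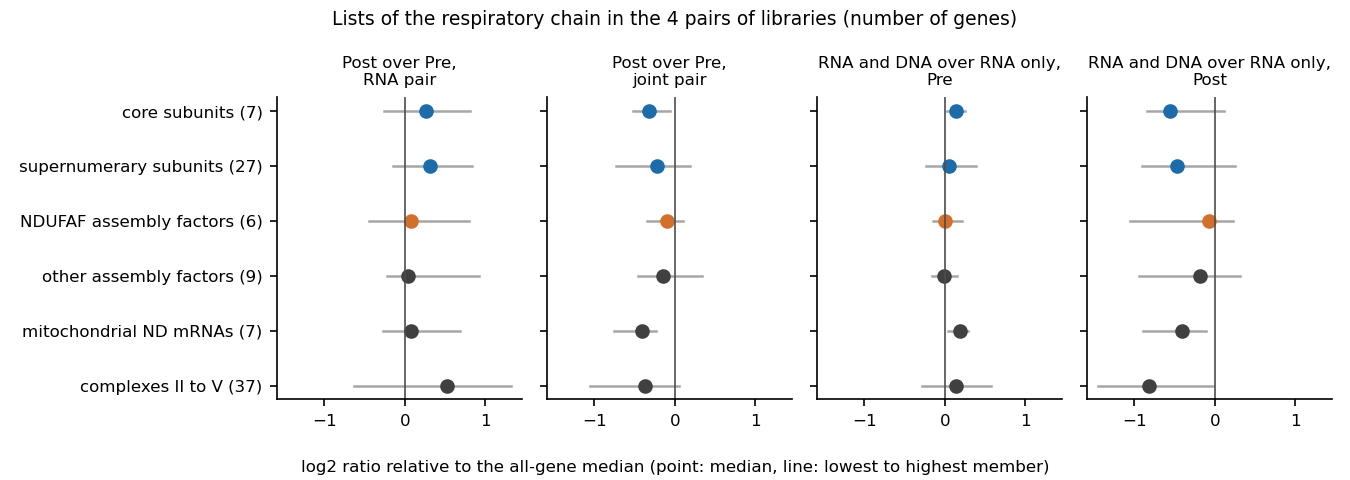
Median (point) and range from lowest to highest gene (line) of the log2 ratio relative to the all-gene median (x axis) for 6 lists of the respiratory chain (y axis, number of genes in brackets) in each of the 4 pairs of libraries. Core and supernumerary subunits (blue) have medians of 0.27 and 0.31 in the RNA pair and of -0.33 and -0.22 in the joint pair, and the assembly factors (orange) lie at 0.08 and -0.09.

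Several members have annotated pseudogenes, whose likeness to the members was not measured. The authors' methods keep only uniquely mapped reads, and how many reads of each member this removed was not tested. Of the 35 subunits 18 have no annotated pseudogene. Their medians were 0.26 in the RNA pair and -0.23 in the joint pair, against 0.43 and -0.24 for the 17 with one. NDUFA5 and NDUFB4 have the most, 12 each, and their values are uncertain for that reason. The noncoding NDUFA6-DT begins 46 bases from NDUFA6, and it was at 19.6, 17.6, 11.5 and 16.2 RPM where NDUFA6 was at 19.6, 17.9, 17.3 and 12.7. NDUFA6 was lowest in Post, RNA and DNA and NDUFA6-DT in Post, RNA only.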

How the data were processed

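The authors deposited 1 whole-number count per gene symbol and barcode after removing duplicate reads, from poly(A) RNA of fixed H9 nuclei. The submitters' processing notes name STAR 2.7.11b, Bowtie2 2.5.3, Bowtie 1.3.1, SAMtools and Trim Galore 0.6.10, with GRCh38. The gene annotation and the strand setting are not given in the sources used here. Groups came from the sample titles, and 60 further barcode columns were not used.

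Counts were divided by library totals (6368721 to 10089552). Log2 ratios used a pseudocount of 1 RPM and the median of genes reaching a mean of 10 RPM as centre. Single-pair intervals are exact (Poisson, or Clopper-Pearson given both counts), and those of differences between pairs use a normal approximation on log counts. The steps were tested on simulated data. With 1 library per condition no test within a pair was made. Genes were placed with GENCODE release 44, which held 90.6% of the genes tested. Levels between genes are per kilobase of the canonical transcript, and whether counts scale with transcript length was not tested.

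Named were core subunits, NDUFAF genes, the 4 highest and 4 lowest subunits per kilobase, up to 4 subunits per direction in each order pair and in their difference, members at 2-fold in any pair, and NDUFA4 with NDUFA4L2. Of the genes this rule takes, 1 is not reported here. NDUFS5, NDUFA8, NDUFA6, NDUFA6-DT and other members outside the rule were named after their values were seen. Members and lists were chosen with earlier results of these data known. R 4.3.3 with edgeR 4.0.16 (TMM sizes and an additive fit), limma 3.58.1 and Python 3.11.15 with scipy 1.17.1, numpy 2.4.6, matplotlib 3.10.9 and pandas 2.3.3 were used.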

Additional observations from a re-analysis of the deposited data

Results flagged for a closer look

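The members at the filter that were at least 0.32 above the all-gene median on the log2 scale in Post over Pre when only RNA was profiled, and at least 0.32 below it when DNA was profiled too, were NDUFA8, NDUFAB1, NDUFS3, NDUFS8 and NDUFAF4. Their order effect in the RNA pair minus that in the joint pair was 0.87 for NDUFA8, 1.24 for NDUFAB1, 1.01 for NDUFS3, 0.96 for NDUFS8 and 0.92 for NDUFAF4 on the log2 scale. The median of that difference over the 35 subunits was 0.64. Each pair is 1 library against 1, so these differences were not tested. The counting intervals of the difference lay above 0 for 24 of the 35 subunits, against 20.3% of all genes. The 5 genes were chosen by these values, so the sides of their own intervals follow largely from the choice.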

How the results depend on the processing

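Medians over the subunits or assembly factors were counted as moved where they shifted by more than the counting half-width of the class's summed ratio. A turn of direction was counted only where the main value lay farther from 0 than that half-width. By these rules 153 of 190 recomputed medians stayed within it, 28 moved and 9 turned direction. Other medians that changed sign, such as that of the assembly factors in plain RPM in the RNA pair, are not among the 9. With TMM sizes the subunits' median in the joint pair was -0.30 and 17 were called lower. With median-of-ratios sizes the medians were 0.26 in the RNA pair and -0.30 in the joint pair. In plain RPM the subunits were at -0.13 in the RNA pair (3 higher), -0.34 in the joint pair (18 lower), -0.17 for RNA and DNA over RNA only in Post (12 lower) and 0.29 for the difference between the order pairs (15 higher). The assembly factors were then at -0.36, -0.19, 0.31 and -0.28. Of the 30 subunits above the all-gene median in the RNA pair, 18 were below 0 in plain RPM. For single genes a turn was counted only among those the naming rule took whose counting interval excluded 0. These were NDUFS4, NDUFS8 and NDUFV2, at -0.13, -0.0083 and -0.17 in the RNA pair. Centring on genes of at least 100 RPM gave 0.37 in the RNA pair, -0.62 for the Post contrast and 0.72 for the difference. A filter at 1 RPM called 5 subunits higher in the Pre contrast.

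A filter at 50 RPM left 3 subunits and 3 assembly factors, so its values rest on few genes. The subunits were then at -0.083 (0 higher) in the RNA pair, -0.073 (0 lower) in the joint pair, 0.059 (1 lower) for the Post contrast and -0.013 (1 higher) for the difference, with 0 higher in the Pre contrast. Subunits minus assembly factors turned to -0.18, 0.017 and 0.077 in the RNA pair, the joint pair and the Post contrast. With a pseudocount of 5 RPM 5 were lower in the joint pair and 0 higher in the Pre contrast, and the Post contrast and the difference were at -0.48 and 0.56. Thinning every library to the smallest total gave 0.37 in the RNA pair and -0.48 for the Post contrast.

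Without members that have an annotated pseudogene the assembly factors were at -0.045 in the RNA pair. Of the 18 subunits left, 6 (33.3%) were higher there, against 48.6% of all 35. The subunits' Post contrast was at -0.49 with 12 (66.7%) lower, against 68.6%. By the difference 13 (72.2%) were higher, against 74.3%. At 1.5-fold 9 of the 35 subunits were higher in the RNA pair, 2 lower in the joint pair, 0 higher in the Pre contrast and 15 lower in the Post contrast. At 2-fold these counts were 0, 0, 0 and 0, and 2 were higher by the difference. With assembly factors of other names added, subunits minus assembly factors was -0.37 in the Post contrast. Centring on genes of the same span class, chosen after seeing the data, gave subunit medians of 0.16 (RNA pair), -0.10 (joint pair, 2 lower), -0.21 (Post contrast, 13 lower) and 0.28 (difference, 14 higher), with 1 higher in the Pre contrast, where 11.9%, 16.0% and 1.28% of the genes with a place were called, and subunits minus assembly factors of 0.10 in the RNA pair and -0.18 in the Post contrast. Totals without the 20 most abundant genes, in the order of libraries used above, made the subunits 1199, 1259, 1445 and 1114 RPM and the assembly factors 312, 312, 323 and 302 RPM. With longest transcripts the median levels were 9.97 and 11.1 RPM per kb. The causes of these changes were not tested. The labels give no replicate numbers and each condition holds 1 library, so there was no replicate block and none could be left out. An additive fit of order and profiling over the 4 libraries, chosen after seeing the data, gives 1 order effect for both pairs with 1 residual degree of freedom, and the difference between the pairs becomes its error. Its median order effect by edgeR was 0.032 for the subunits and 0.053 for the assembly factors. By edgeR's quasi-likelihood test 0 members and 2 of all genes passed an adjusted p of 0.05, and 0 members and 357 genes an unadjusted one. By limma the counts were 0 and 2 at the adjusted p, and 0 and 366 at the unadjusted one. For the 26 of 35 subunits above the all-gene median in the RNA pair and below it in the joint pair, that error holds their whole difference. The fit could thus hardly call them, and its count of 0 members decides nothing about the order effect within a pair. Counting error limits the 7 members under 10 RPM.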
